A study of Mus musculus with 8 samples.

Results

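Annexins A1 to A6 (Anxa1, Anxa2, Anxa3, Anxa4, Anxa5 and Anxa6) and the S100 proteins A4, A6, A10 and A11 (S100a4, S100a6, S100a10 and S100a11) were examined in liver endothelial cells (LEC) silenced for Dhx15, an RNA helicase of the DEAH box family that takes part in releasing and recycling the spliceosome. The 10 genes were found by symbol in a table of normalized counts per isoform, the symbol being the isoform's name without its final number, and a gene's value was the sum of its isoforms. All 10 were listed, among 49492 symbols, with 47 of the 122968 isoforms. RNA sequencing covered 2 conditions with 4 libraries each. siL-DHX15-LEC carried a lentiviral shRNA against Dhx15 whose expression was switched on with doxycycline, and WT-LEC were untreated. Both were derived from hepatic endothelial cells of C57BL/6 mice that had been immortalized with SV40. None of the libraries came from cells that received a vector and doxycycline while keeping Dhx15, so vector, doxycycline and silencing cannot be told apart. The study describes the libraries of a condition as biologically independent samples. As LEC are a cell line, the spread between libraries is not that between animals. The p-values set the difference between conditions against this spread.

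Annexins are calcium-dependent proteins that dock onto the acidic phospholipids of the inner face of the plasma membrane and of vesicles, where they organize membrane and cortical actin, help in exocytosis and endocytosis, and gather at wounds of the membrane that are being resealed. S100 proteins are small EF-hand dimers, most of which bind calcium. Several of them clasp the amino-terminal tail of an annexin: S100A10 pairs with annexin A2 and S100A11 with annexin A1. On endothelial cells the annexin A2 and S100A10 complex is known as a docking site for plasminogen and its tissue activator.

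Dhx15, the silenced gene, had 8936, 7956, 8930 and 10051 normalized counts in siL-DHX15-LEC and 26824, 27952, 26430 and 28006 in WT-LEC, a log2 fold change of -1.61 (SE 0.0592, limma adjusted p = 3.29e-08). Sequencing was paired-end, and the counts assigned to isoforms, as recovered from the normalized values, summed to between 77335734 and 152045693 per library. The labels call the cells sinusoidal endothelial, and only part of the usual markers passed the filter on low values. Of 16 endothelial markers 7 passed, among them Pecam1, Kdr, Flt1 and Egfl7, while Cdh5, Tek, Tie1, Erg and Cldn5 were below it. Emcn was listed at 0 in all libraries. The endothelial list summed to 3338 to 3603 normalized counts in siL-DHX15-LEC and 3399 to 3629 in WT-LEC. Of 12 sinusoidal markers 6 passed, with Stab2, Lyve1 and Clec4g below it. The sinusoidal list summed to 10287 to 11014 in siL-DHX15-LEC and 9342 to 10005 in WT-LEC, most of it Gata4. The study reports CD31 and eNOS protein in LEC, and Lyve-1 and podoplanin mRNA by RT-qPCR. The summed epithelial markers had 239836 to 264842 normalized counts in siL-DHX15-LEC and 208431 to 239774 in WT-LEC (9 of 11 past the filter), and the mesothelial ones 81703 to 88937 in siL-DHX15-LEC and 70579 to 78056 in WT-LEC (9 of 11). Krt19, which both lists hold, averaged 49669 in siL-DHX15-LEC and 33181 in WT-LEC, while of the 9 tested mesothelial markers 2 were higher (Krt19 and Aldh1a2) and 4 lower (median log2 fold change -0.35), the lower being Upk3b, Upk1b, Wt1 and Gpm6a. Of the 9 tested epithelial markers 4 were higher, 1 was lower and 4 did not pass. The stellate cell or fibroblast markers had 47541 to 49153 in siL-DHX15-LEC and 55986 to 56669 in WT-LEC (9 of 12), most of it Col1a1. Of these 9 tested markers 1 was higher (Des), 3 were lower and 5 did not pass. Leukocyte markers summed to 1290 to 1454 in siL-DHX15-LEC and 1359 to 1539 in WT-LEC (3 of 13), with Marco, Timd4, Vsig4 and Cd3e among those at 0. Of 19 tested hepatocyte markers 17 were lower in siL-DHX15-LEC, against 14.8% of all tested genes, and Rbp4 rose (log2 fold change 0.16, limma adjusted p = 0.0229). Alb had 0 to 1.89 normalized counts in siL-DHX15-LEC and 522 to 658 in WT-LEC. Ttr, Fga, Fgb, Serpina1a, Serpina1b, Mup3 and Mup20 were at 0 in every silenced library. These passed the filter only through WT-LEC and could only come out lower, so the count of lower markers is partly set by the filter. The part of these differences in the results below was not tested. In bulk RNA, fewer cells of a type and less RNA per cell cannot be told apart. Lane cannot be told apart from condition either, since siL-DHX15-LEC libraries ran on lanes 5 and 2 of the 2 flow cells and WT-LEC libraries on lanes 4 and 1.

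Silencing of Dhx15 went with small changes of the annexin and S100 genes, in both directions. Anxa2, Anxa4, Anxa5, S100a6 and S100a10 rose, Anxa3 fell, and Anxa1, Anxa6, S100a4 and S100a11 did not pass the test (limma on log2 of the normalized count plus 1, two-sided, adjusted over 16489 genes, adjusted p threshold 0.05). The 5 genes that rose stand against a background in which 18.4% of all tested genes were higher, and the 1 that fell against one in which 14.8% were lower. In 5 of the 10 genes the 4 siL-DHX15-LEC libraries did not overlap the 4 WT-LEC libraries, as was the case for 30.8% of all tested genes. The median log2 fold change of the 10 genes was 0.094, against -0.0092 over all tested genes, and the median size of the change was 0.15, the same as the 0.15 of all tested genes. With libraries scaled to equal totals, the tested genes split into 1859 higher and 3891 lower, against 3039 higher and 2435 lower with the deposited scaling, and 3 of the 10 genes were then higher and 1 lower.

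**Figure D1:**
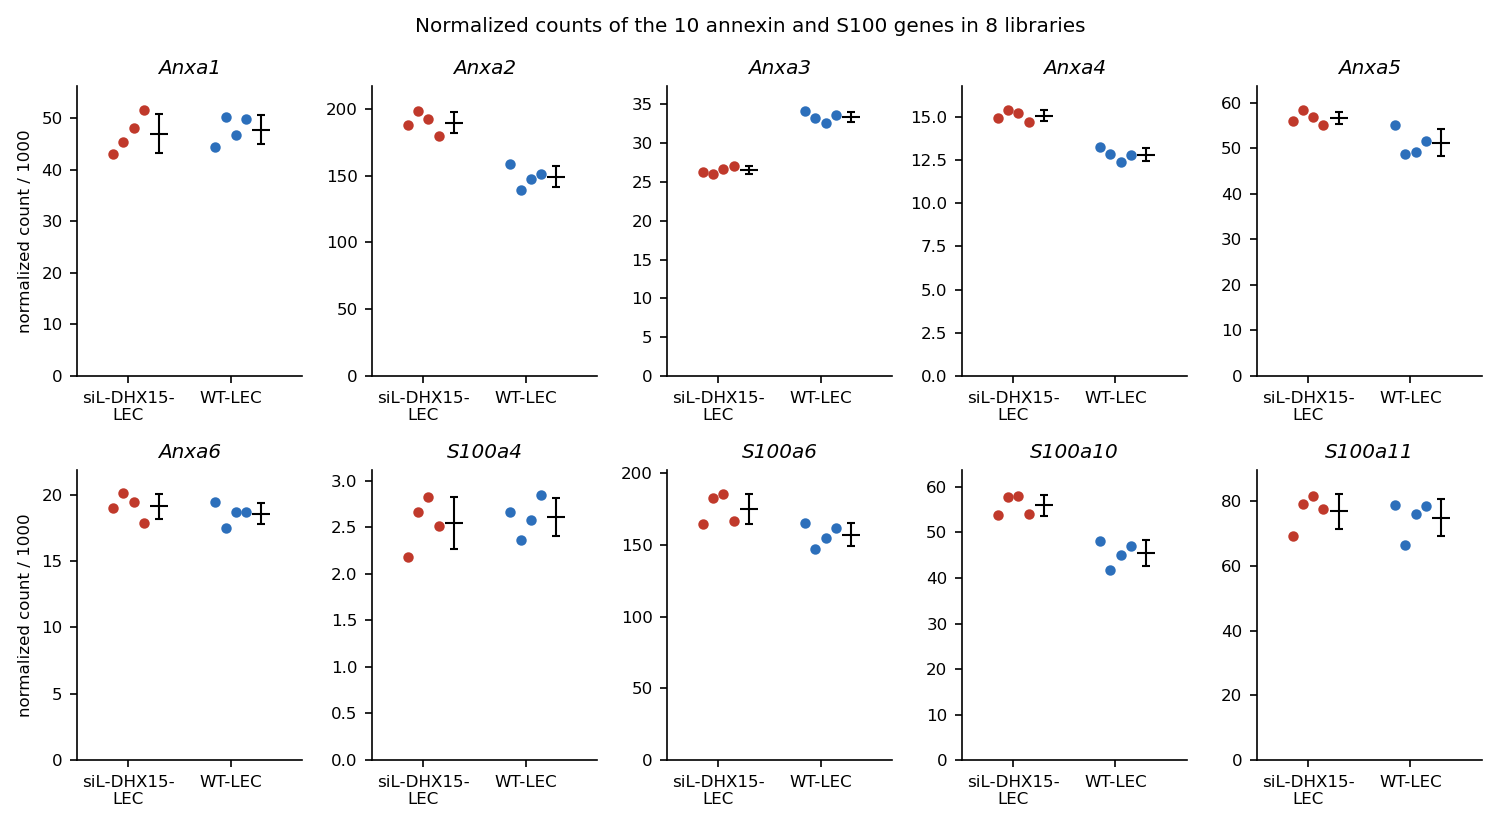
Normalized counts (divided by 1000, axes from 0) of the 10 genes in each library, siL-DHX15-LEC left and WT-LEC right, with the mean and SD of the 4 libraries beside the points. Anxa2, Anxa4, Anxa5 and S100a10 lie higher in all 4 siL-DHX15-LEC libraries and Anxa3 lower, while the points of the other 5 genes overlap.

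Anxa2, whose protein forms a tetramer with S100A10 at the cell membrane, had 188092, 197968, 192120 and 179376 normalized counts in siL-DHX15-LEC, against 158610, 139201, 147750 and 151307 in WT-LEC. All 4 silenced libraries lay above all 4 WT libraries, and the log2 fold change was 0.34 (SE 0.0474, 95% interval 0.24 to 0.45, limma adjusted p = 3.20e-04). S100a10, the light chain of that tetramer, had 53819, 57714, 58054 and 54165 normalized counts in siL-DHX15-LEC and 48181, 41827, 45017 and 46988 in WT-LEC. Its libraries did not overlap either, and it rose by a log2 fold change of 0.30 (SE 0.0480, limma adjusted p = 8.28e-04). The folds of the 2 partners were 1.27 and 1.23, and their difference was not tested. Per kilobase of transcript, S100a10 stood at 0.602 to 0.636 of Anxa2 in siL-DHX15-LEC and at 0.633 to 0.654 in WT-LEC, ratios that overlapped between the conditions. Anxa2 lies at chr9:69453620-69491795 on the plus strand (GRCm38), with an antisense gene, Gm16144, within its span, and S100a10 at chr3:93555080-93564643, also on the plus strand, with no other annotated gene overlapping it.

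RefSeq promoter windows (build GRCm38.p6, 250 bases before to 50 after a start) were at hand for 7 of the 10 genes. The windows of Anxa2, which rose, and of S100a11, which did not pass the test, are shown because both hold GC boxes and AP-1 sites. Capitals mark 3 motifs, searched on both strands, of which none overlaps another. They are the GC box, spelled GGGCGG, then the AP-1 site, searched for here with the letters TGAGTCA, and the TATA box, for which the search used TATAAA.
Anxa2, chr9:69453433-69453732, plus strand: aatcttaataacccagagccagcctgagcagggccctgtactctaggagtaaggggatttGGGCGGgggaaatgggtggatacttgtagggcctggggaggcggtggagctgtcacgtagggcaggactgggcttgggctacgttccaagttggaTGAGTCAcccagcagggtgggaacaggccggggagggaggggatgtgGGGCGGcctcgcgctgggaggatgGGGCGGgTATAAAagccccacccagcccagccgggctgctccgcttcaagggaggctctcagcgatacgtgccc
S100a11, chr3:93520246-93520545, plus strand: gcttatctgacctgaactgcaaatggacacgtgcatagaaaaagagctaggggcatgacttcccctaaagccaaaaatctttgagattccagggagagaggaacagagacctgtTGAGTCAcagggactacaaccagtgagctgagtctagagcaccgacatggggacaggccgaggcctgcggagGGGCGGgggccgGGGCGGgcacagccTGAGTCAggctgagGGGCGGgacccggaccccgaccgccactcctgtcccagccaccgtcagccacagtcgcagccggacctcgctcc
The Anxa2 window held 3 GC boxes, 1 AP-1 site and 1 TATA box, and the S100a11 window 3 GC boxes and 2 AP-1 sites. The AP-1 letters were found in 5.20% of all 32851 promoter windows of this length, the GC box in 35.7% and the TATA box in 13.6%. Of the other windows, those of Anxa1 and S100a4 held 1 TATA box each and 1 of the 2 windows of Anxa4 held 1 GC box, while those of Anxa5 and S100a6 held none of these letters. A match describes the letters only.

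Anxa3, an annexin known in liver from studies of hepatocyte growth and of hepatic tumours, was the only gene of the 10 that fell. It had 26236, 26002, 26684 and 27093 normalized counts in siL-DHX15-LEC and 34164, 33214, 32595 and 33601 in WT-LEC. The conditions were far apart relative to the spread between libraries, with a log2 fold change of -0.33 (SE 0.0320, 95% interval -0.40 to -0.26, limma adjusted p = 4.12e-05). The gene lies at chr5:96793339-96845966 on the plus strand of GRCm38. A gene model of the same strand, Gm42603, overlaps it, and reads of the 2 could be divided between them by the counting. Noncoding gene models on the opposite strand overlap Anxa1 and Anxa4.

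Anxa4, which associates with apical and secretory membranes of epithelia, had 14943, 15382, 15206 and 14672 normalized counts in siL-DHX15-LEC, against 13255, 12834, 12356 and 12763 in WT-LEC. The 2 groups of libraries did not overlap, and the log2 fold change was 0.23 (SE 0.0346, limma adjusted p = 5.05e-04). The gene lies at chr6:86736840-86793584 on the minus strand (GRCm38).

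Anxa5 and S100a6 rose less and less firmly. Anxa5, known for binding phosphatidylserine exposed on dying cells, had 55992, 58418, 56925 and 55165 normalized counts in siL-DHX15-LEC and 55149, 48695, 49197 and 51630 in WT-LEC. The lowest silenced library was just above the highest WT library, and the log2 fold change was 0.15 (SE 0.0433, limma adjusted p = 0.0215). S100a6, or calcyclin, a ligand of annexins and of the calcyclin-binding protein, had 164761, 182657, 185372 and 167044 normalized counts in siL-DHX15-LEC and 165230, 147195, 154845 and 161720 in WT-LEC. WT-LEC library 1 lay above the lowest silenced library, and the log2 fold change was 0.15 (SE 0.0516, limma adjusted p = 0.0390). Neither call held under every alternative. Without siL-DHX15-LEC library 2 or 3, or without WT-LEC library 2 or 3, the limma adjusted p became 0.0590, 0.0593, 0.0536 and 0.0725 for Anxa5 and 0.102, 0.123, 0.0974 and 0.0982 for S100a6, and without WT-LEC library 4 it was 0.0589 for S100a6. With equal totals it was 0.0928 for Anxa5 and 0.145 for S100a6.

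The total of Anxa6 did not pass the test, while its isoforms moved apart. Annexin A6 is the large annexin with 2 core modules joined by a linker, and binds to late endosomes and to cholesterol-rich membrane. Anxa6 had 18996, 20122, 19489 and 17903 normalized counts in siL-DHX15-LEC and 19425, 17521, 18672 and 18740 in WT-LEC, with a log2 fold change of 0.041 (95% interval -0.056 to 0.14, limma adjusted p = 0.506). Its 2 main isoforms, Anxa6-001 and Anxa6-002, share 25 exons and differ by 1. This exon of 18 bases, exon 21 of 26 in Anxa6-001, lies at chr11:54987051-54987068 on the minus strand (GRCm38, GENCODE M21) within the coding sequence, and adds codons 525 to 530 in frame, for 673 codons in all, against 667 without it. The coding bases around it are given for both isoforms, with 30 bases on either side and the exon in capitals.
Anxa6-001, exon included: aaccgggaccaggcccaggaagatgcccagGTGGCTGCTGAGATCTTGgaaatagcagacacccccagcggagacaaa
Anxa6-002, exon skipped: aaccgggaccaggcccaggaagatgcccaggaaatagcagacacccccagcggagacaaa

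Anxa6-001, with the exon, had 11631, 11640, 11174 and 9952 normalized counts in siL-DHX15-LEC and 9093, 7476, 8453 and 8469 in WT-LEC. It was higher in every silenced library (log2 fold change 0.41, SE 0.0705, limma adjusted p = 0.00915 over 50198 isoforms). Anxa6-002, without the exon, had 7272, 8332, 8188 and 7809 normalized counts in siL-DHX15-LEC and 10145, 9869, 10073 and 10136 in WT-LEC. It was lower in every silenced library (log2 fold change -0.35, SE 0.0454, limma adjusted p = 0.00298). The share of Anxa6-001 in the gene's total was 61.2, 57.8, 57.3 and 55.6% in siL-DHX15-LEC, against 46.8, 42.7, 45.3 and 45.2% in WT-LEC, with means of 58.0 ± 2.36% in siL-DHX15-LEC and 45.0 ± 1.71% in WT-LEC (SD, n = 4 each; exact permutation test, two-sided, p = 0.0286, the smallest that 4 against 4 allows). In WT-LEC the isoform without the exon was therefore the more abundant of the pair, and in siL-DHX15-LEC the one with it. The ratio of Anxa6-001 to Anxa6-002 was 1.60, 1.40, 1.36 and 1.27 in siL-DHX15-LEC and 0.896, 0.758, 0.839 and 0.836 in WT-LEC. In the test of isoform usage, limma on the log2 ratio of an isoform to the other isoforms of its gene, the differences were 0.76 for Anxa6-001 (SE 0.0915, adjusted p = 0.00716) and -0.75 for Anxa6-002 (SE 0.0889, adjusted p = 0.00681), which mirror each other because the third isoform held at most 1.01% of the total in every library. RSEM, which assigned the reads to isoforms, can separate this pair only by reads over the exon or its junctions. How many such reads there were is not known here, and how the estimate depends on them was not tested.

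**Figure D2:**
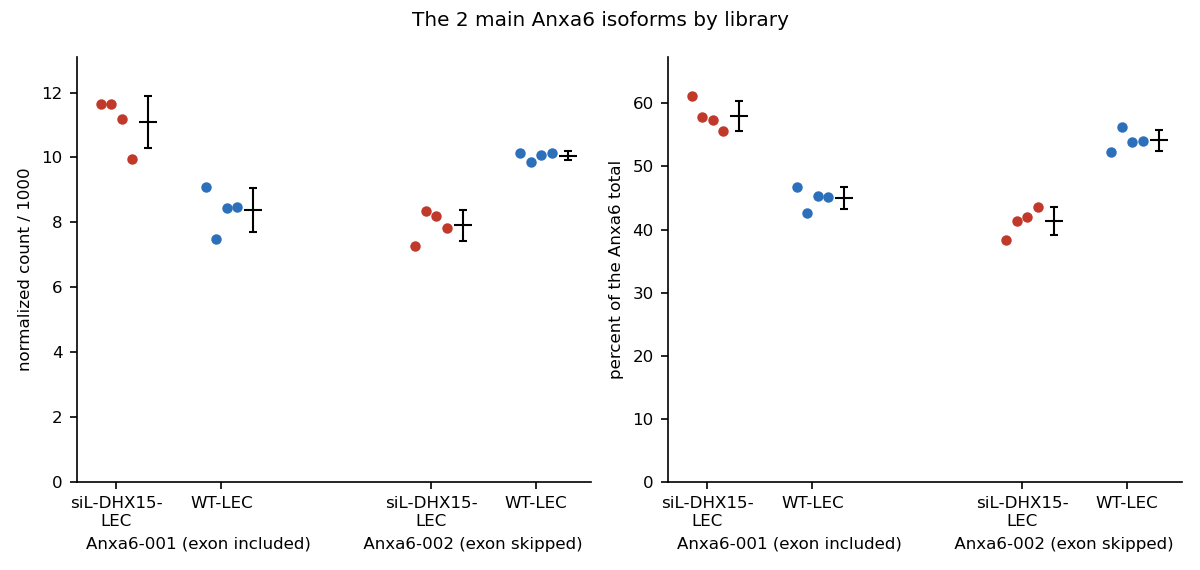
The 2 main Anxa6 isoforms in each library, as normalized counts divided by 1000 (left) and as percent of the gene's total (right), with siL-DHX15-LEC left of WT-LEC in each pair and the mean and SD beside the points. Anxa6-001 has shares of 55.6 to 61.2% in siL-DHX15-LEC and 42.7 to 46.8% in WT-LEC, and Anxa6-002 shows the opposite order.

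Usage could be tested for 6 isoforms of 3 of the 10 genes, those with at least 2 isoforms past the filter that each held 5% of the total or more, and 3 isoforms of 2 genes passed, against 8.09% of the 17707 isoforms tested. The third was Anxa4-008, at 6.95, 6.09, 6.47 and 6.37% of Anxa4 in siL-DHX15-LEC and 5.48, 4.76, 5.37 and 4.58% in WT-LEC (exact permutation test, two-sided, p = 0.0286). This annotated transcript of 940 bases shares 9 exons with the main isoform Anxa4-007, which has 2002 bases. Its limma adjusted p for usage was 0.0422 and rose above the threshold when any library was left out (0.0565 to 0.105). The permutation p-values of Anxa4-008 and Anxa6-001 come from the same values as the usage test, are not adjusted, and add no separate support. Anxa4-007 held 85.6 to 88.2% in siL-DHX15-LEC and 88.2 to 89.8% in WT-LEC (adjusted p = 0.342). S100a6-001 and S100a6-002 differ in a noncoding first exon and share their coding exons. S100a6-001 held 52.0 ± 1.40% in siL-DHX15-LEC and 53.3 ± 1.99% in WT-LEC (SD), and neither isoform's usage passed the test (adjusted p = 0.638 and 0.398).

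Among the 47 isoforms, 42 passed the filter on low values, an average of 10 normalized counts. Of these, 7 were higher in siL-DHX15-LEC, against a background of 6.61% of 50198 isoforms, 2 were lower, against 3.83%, and 33 did not pass. With libraries scaled to equal totals, all tested isoforms split into 2109 higher and 3151 lower, against 3317 higher and 1925 lower with the deposited scaling. The study's stricter threshold for isoforms, 0.001, was used there with DESeq2. Here, with limma, 0.287% of all isoforms passed it, and of the 10 genes 1 isoform was left, Anxa3-001 (log2 fold change -0.34, limma adjusted p = 5.54e-04). This main isoform of Anxa3 held 91.2 to 92.3% of the gene's total in siL-DHX15-LEC and 92.2 to 93.1% in WT-LEC. With DESeq2 on the recovered counts at 0.001, 6 isoforms of the 10 genes were higher and 2 lower. In all, 3613 isoforms passed, against 144 with limma. All 9 isoforms that changed were annotated as protein-coding (24 tested), and none of the 14 isoforms with a retained intron, the 2 targets of nonsense-mediated decay and the 2 processed transcripts did. The share that changed among all isoforms of each of these kinds was not determined. With 6.61% of all tested isoforms higher and 3.83% lower, few would be called among so small a number in any case. Isoforms with a retained intron made up 1.24 to 1.63% of the summed counts of the 10 genes in siL-DHX15-LEC and 1.36 to 1.69% in WT-LEC.

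Beside Anxa6-001, Anxa6-002 and Anxa3-001, the isoforms that passed were 6 protein-coding forms of genes that rose, both main and minor ones. Anxa2-001 (log2 fold change 0.34, limma adjusted p = 0.00267) made up 99.4 to 99.5% of Anxa2 in every library, and S100a10-001 (0.30, adjusted p = 0.00645) at least 99.8% of S100a10. Anxa4-007, the main form of its gene, rose by 0.21 (adjusted p = 0.00725) and the minor form Anxa4-008 by 0.59 (adjusted p = 0.00374) on the log2 scale. Of the S100a6 pair, S100a6-002, the less abundant, passed, with 76607, 81696, 82777 and 75279 normalized counts in siL-DHX15-LEC and 69144, 62436, 69645 and 72011 in WT-LEC (0.21, adjusted p = 0.0282), while S100a6-001, the more abundant, did not (0.12, adjusted p = 0.299). Anxa2-004, a short annotated transcript that starts at a first exon of its own, had 598, 420, 623 and 640 normalized counts in siL-DHX15-LEC and 418, 287, 332 and 344 in WT-LEC (0.72, SE 0.161, adjusted p = 0.0257). It stayed at or under 0.357% of the gene. Its call was lost without siL-DHX15-LEC library 1, 3 or 4 or WT-LEC library 2, 3 or 4 (adjusted p 0.0523 to 0.0742), and that of S100a6-002 without siL-DHX15-LEC library 1, 2 or 3 or WT-LEC library 1 or 3 (0.0518 to 0.0806). Anxa2-005 had the largest fold of the tested isoforms at low counts, 0, 5.30, 5.27 and 12.3 in siL-DHX15-LEC and 38.1, 19.9, 26.1 and 27.7 in WT-LEC. The conditions did not overlap, and the test did not pass (log2 fold change -2.56, SE 0.750, limma adjusted p = 0.0664). The main isoform of Anxa5, Anxa5-001, missed the threshold over isoforms (0.15, adjusted p = 0.0619).

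**Figure D3:**
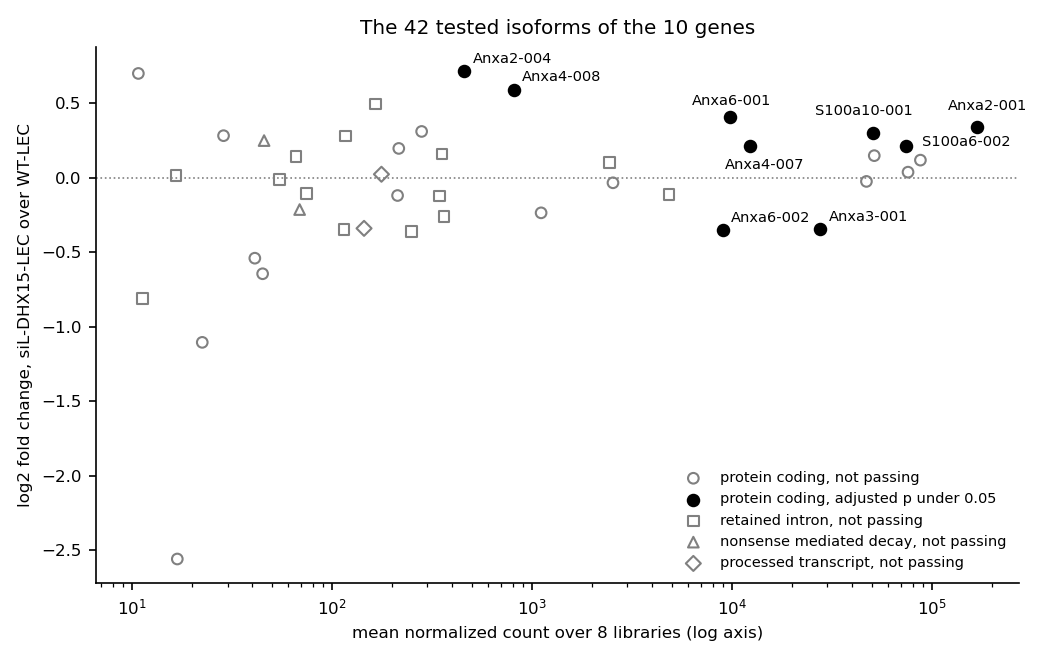
Log2 fold change (siL-DHX15-LEC over WT-LEC) of the 42 tested isoforms against their mean normalized count (log axis), with the symbol giving the annotated biotype and filled symbols the 9 isoforms past an adjusted p of 0.05. Of the filled points 7 lie above and 2 below 0, and the widest scatter is among isoforms of low counts.

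Of the 4 genes that did not pass the test, Anxa1, a glucocorticoid-regulated annexin whose amino-terminal peptide acts on formyl peptide receptors, had 42952, 45413, 47995 and 51626 normalized counts in siL-DHX15-LEC and 44349, 50227, 46629 and 49815 in WT-LEC. The WT-LEC range lay within that of siL-DHX15-LEC (log2 fold change -0.025, 95% interval -0.15 to 0.10, limma adjusted p = 0.773). S100a11, its S100 partner, had 69226, 79218, 81497 and 77490 normalized counts in siL-DHX15-LEC and 78743, 66409, 75938 and 78354 in WT-LEC (0.039, interval -0.098 to 0.18, adjusted p = 0.664). S100a4, which binds nonmuscle myosin and is known from motile and mesenchymal cells, had 2182, 2665, 2829 and 2509 normalized counts in siL-DHX15-LEC and 2661, 2362, 2580 and 2851 in WT-LEC (-0.041, interval -0.21 to 0.13, adjusted p = 0.718). In each of the 3 genes the conditions overlapped, and only the interval of S100a11 reaches up to a rise as large as those of Anxa5 and S100a6. A gene model of the same strand, Gm42674, overlaps S100a4, and reads of the 2 could be divided between them by the counting.

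Levels of different genes were set side by side as normalized counts per kilobase of transcript, summed over isoforms. In WT-LEC the order was S100a6 (276879 ± 13531), S100a11 (146499 ± 11291), Anxa2 (103395 ± 5618), S100a10 (66442 ± 4052), Anxa5 (32389 ± 1740), Anxa1 (28969 ± 1687), Anxa3 (21987 ± 456), Anxa6 (7510 ± 318), Anxa4 (7048 ± 223) and S100a4 (5295 ± 411; mean ± SD, n = 4). S100a6 ranked 14 and S100a4 ranked 2039 among 16467 genes with a length in WT-LEC, so all 10 were among the more abundant transcripts. With 200 bases taken off each transcript length, S100a4 (8964) stood above Anxa6 (8171) and Anxa4 (8040) in WT-LEC, so the order of these 3 depends on the length used. Of the neighbours in the order without this deduction only Anxa6 and Anxa4 overlapped in WT-LEC, with 7082 to 7848 and 6805 to 7344 per kilobase. In siL-DHX15-LEC the order of those 2 was turned, Anxa4 having 8143 to 8579 and Anxa6 7226 to 8120. S100a11 and Anxa2, which were apart in WT-LEC, overlapped in siL-DHX15-LEC, with 135471 to 159485 and 124488 to 137150. The 6 annexins together had 345835 to 363304 normalized counts in siL-DHX15-LEC and 301692 to 324953 in WT-LEC, of which Anxa2 was the largest part, and the 4 S100 genes 289988 to 327752 in siL-DHX15-LEC and 257792 to 294815 in WT-LEC.

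**Figure D4:**
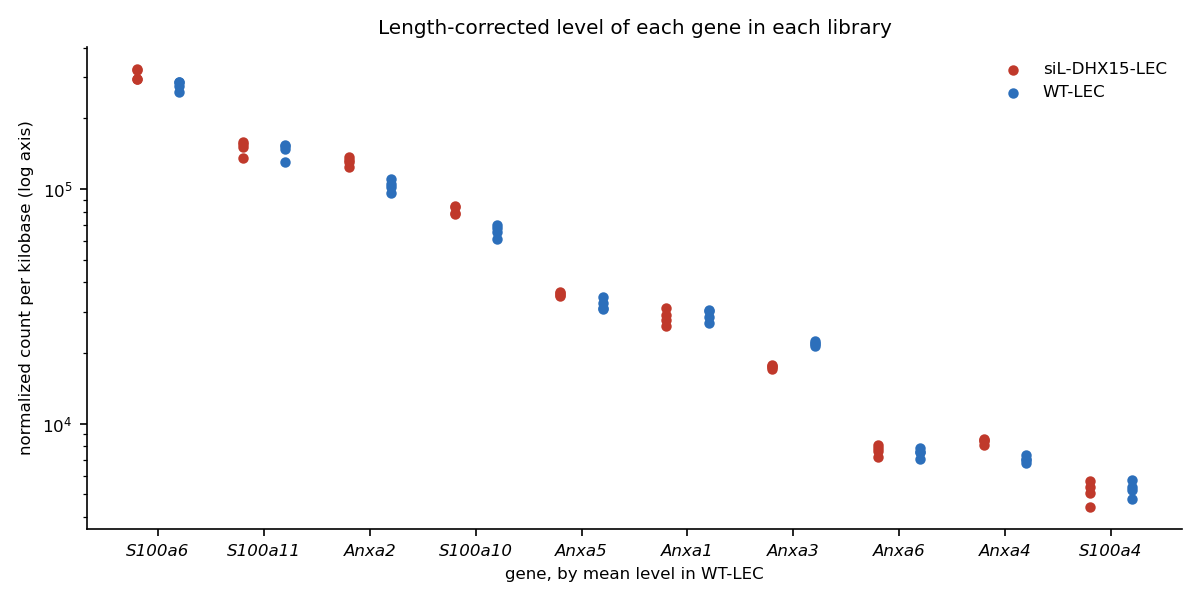
Normalized counts per kilobase of transcript (log axis) of the 10 genes in each library, siL-DHX15-LEC left of WT-LEC, ordered by the mean in WT-LEC. The mean in WT-LEC spans from 5295 for S100a4 to 276879 for S100a6, and differences between genes are far wider than those between conditions.

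The other members of both families were read from the same fit. Of 6 other annexins, 5 passed the filter and 4 of these rose, where 18.4% of all tested genes were higher. The median log2 fold change of the 5 was 0.34. Anxa7, the annexin known as synexin, had 13858, 14360, 13682 and 13114 normalized counts in siL-DHX15-LEC and 11416, 10451, 10297 and 10760 in WT-LEC (log2 fold change 0.36, SE 0.0425, limma adjusted p = 1.38e-04). Anxa8 rose by 0.34 (adjusted p = 0.00105) and Anxa11, which ties RNA granules to lysosomes, by 0.21 (adjusted p = 0.00326). Anxa10 rose by 0.66 at a low level, 104 to 154 normalized counts in siL-DHX15-LEC and 68.4 to 104 in WT-LEC (adjusted p = 0.0115), Anxa9 did not pass (0.086, adjusted p = 0.392), and Anxa13 was below the filter. Of 12 other S100 genes, 6 passed the filter, 2 rose and 1 fell, where 14.8% of all tested genes were lower. The median of the 6 was 0.031. S100a1 had 4868 to 5681 normalized counts in siL-DHX15-LEC and 3833 to 4253 in WT-LEC (0.35, SE 0.0563, adjusted p = 7.91e-04), and S100a16 rose by 0.24 (adjusted p = 0.0100). S100a7a fell by 0.65 on the log2 scale, with 74.7 to 105 normalized counts in siL-DHX15-LEC and 136 to 150 in WT-LEC (adjusted p = 0.00180). S100a3 (-0.16, adjusted p = 0.332), S100a13 (-0.018, adjusted p = 0.867) and S100a14 (0.080, adjusted p = 0.545) did not pass. The directions of the genes named here as risen or fallen were the same with TMM scaling and with equal totals. S100a8 and S100a9, the S100 genes of neutrophils and monocytes, were below the filter, with at most 2.65 and 16.7 normalized counts.

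**Figure D5:**
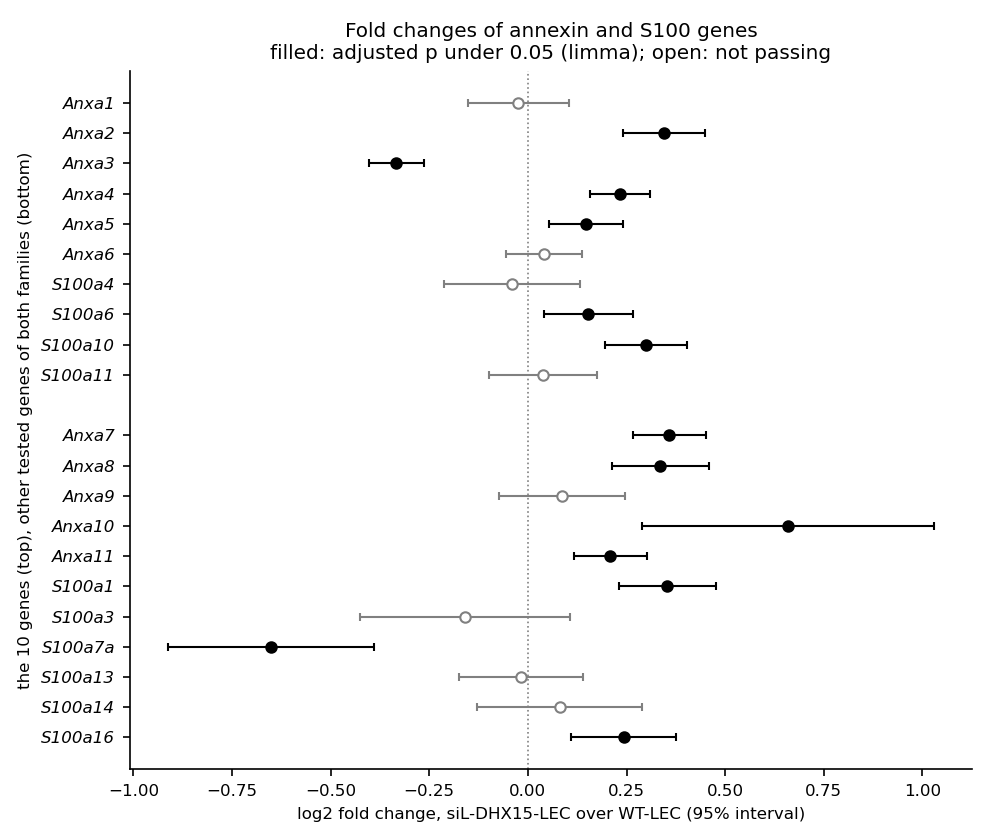
Log2 fold changes (siL-DHX15-LEC over WT-LEC) with 95% intervals from limma of the 10 genes (top) and of the other tested annexin and S100 genes (bottom), filled where the adjusted p was under 0.05. Among the annexins of both groups, Anxa3 is the only filled point left of 0, and S100a7a is the only one among the S100 genes.

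Proteins that annexins and S100 proteins bind or act with formed a list of 24 genes, of which 21 passed the filter, 7 rose and 2 fell (median log2 fold change 0.071). Iqgap1, a scaffold of cortical actin, had 96316, 93825, 92761 and 90081 normalized counts in siL-DHX15-LEC and 80879, 77337, 75224 and 74331 in WT-LEC (0.28, SE 0.0384, limma adjusted p = 3.33e-04). Myh9, the nonmuscle myosin heavy chain that S100A4 binds, rose by 0.20 (adjusted p = 0.00179), Capn2 and Capns1, the subunits of m-calpain, by 0.18 and 0.22 (adjusted p = 0.00634 and 0.00251), and the lysosomal protease Ctsb by 0.18 (adjusted p = 0.00308). Dlc1, a GTPase-activating protein, fell by 0.18 on the log2 scale (adjusted p = 0.00469). Of 30 genes of plasma membrane repair, 25 passed the filter, 11 rose and 3 fell (median 0.11). The ferlins Myof and Dysf, which carry calcium-dependent vesicle fusion at membrane wounds, rose by 0.22 and 0.32 (adjusted p = 5.67e-04 and 0.00353), Syt7, a calcium sensor of lysosomal exocytosis, by 0.49 (adjusted p = 8.14e-04) and Chmp2a, an ESCRT-III subunit, by 0.23 (adjusted p = 0.00121), while Chmp4c, another ESCRT-III subunit, fell by 0.32 (adjusted p = 0.00353). Capn1, Capn2, Capns1, Cav1, Pdcd6 and Pdcd6ip stand in this list and in that of the partners, and Capn2, Capns1 and Cav1 count as risen in both. Of 28 other EF-hand calcium sensors and buffers, 23 passed the filter, 6 rose and 2 fell (median 0.042). Calm2, 1 of the 3 genes for calmodulin, had 28710, 29694, 31087 and 33880 normalized counts in siL-DHX15-LEC and 38131, 37743, 36929 and 39817 in WT-LEC (-0.31, SE 0.0497, adjusted p = 8.35e-04). Swap70 rose by 0.31 (adjusted p = 0.00157), Nucb1 by 0.25 (adjusted p = 9.03e-04), Calu by 0.22 (adjusted p = 0.00140) and Efhd2 by 0.19 (adjusted p = 0.00470). These counts are read against the shares of all genes given above, 18.4% higher and 14.8% lower.

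The genes whose pattern was most like that of Anxa2 over the 8 libraries, among 9338 genes that averaged 1000 normalized counts or more, were Alkbh3, Rplp2, Snrpa, Plekhb2 and Cdpf1, with Pearson's r of 0.995 to 0.998 on log2 values. Those most like Anxa3 were Herc3, Smad9, Zbed4, Dhx15 itself and Pif1, with r of 0.993 to 0.997. With 2 conditions of 4 libraries, such values describe a shared difference between the conditions and the scaling of the libraries.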

How the data were processed

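Poly-A RNA of 8 libraries was sequenced. The deposited values are a signal: per the submitters' notes and methods, the authors mapped reads with STAR 2.5.2a (GRCm38), counted GENCODE M12 isoforms with RSEM 1.2.28 and divided by DESeq2 1.18 size factors. Counts were recovered from the steps of these values (100% whole within 0.1 of a step) for edgeR 4.0.16 and DESeq2 1.42.0, used as alternatives. The authors' own fold changes and p-values were not used. Genes (summed by symbol) and isoforms averaging 10 or more were tested with limma 3.58.1 (R 4.3.3) on log2(value + 1) with a variance trend and Benjamini-Hochberg adjustment, and usage on log2((isoform + 1)/(rest + 1)). Fold changes are on that scale, which understates those of low genes. Fits were tested on simulated data. Replicates differed by a chi-square per gene of 8.15 to 112, beyond counting noise. Positions and lengths came from GENCODE M21 by transcript ID (47 of 47 matched), promoters from RefSeq. Whether counting used strand is not given in the sources used here. Named were the 10 genes, their isoforms, Dhx15, all tested genes of both families, up to 6 genes with the smallest p per other list, and the 5 genes most like Anxa2 and Anxa3. The genes and lists were chosen with earlier results of these data known. Values of some genes on these lists are not reported here.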

Additional observations from a re-analysis of the deposited data

Results flagged for a closer look

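In 4 of 104 groups of 4 libraries (the 10 genes and 42 isoforms in each condition), 1 library stood apart by Dixon's test at the 95% level, which chance alone gives for about 1 group in 20. All 4 were minor isoforms. Anxa1-004 had 120 normalized counts in siL-DHX15-LEC library 4, against 91.3 to 95.4 in the other silenced libraries, and Anxa1-006 had 10.4 in the same library, against 6.79 to 7.07. Anxa3-005 had 17.6 in siL-DHX15-LEC library 3, against 11.5 to 12.3. Anxa3-003, an isoform with a retained intron, had 573 in WT-LEC library 1, against 283 to 319 in the other WT libraries.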

How the results depend on the processing

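The totals of Anxa2, Anxa4, S100a10 and Anxa3 kept their direction and stayed past the threshold under every alternative run, and so did the usage of Anxa6-001 and Anxa6-002. Of the 10 genes, 4 to 6 passed in each alternative. The call of S100a6 was lost without a filter (limma adjusted p = 0.0826), with TMM (0.0503) and without a variance trend (0.0841), where Anxa5 was lost too (0.0556). The log2 fold change of Anxa6 became -0.026 and that of S100a11 -0.029 with equal totals. Leaving out 1 library turned the sign of genes near 0: Anxa1 ranged from -0.071 to 0.018, S100a4 from -0.094 to 0.031, S100a11 from -0.018 to 0.088 and S100a13 from -0.071 to 0.040. With the most abundant isoform in place of the sum, Anxa6 passed (0.41, adjusted p = 0.00185) while S100a6 (adjusted p = 0.192), Anxa10 (0.137) and Dysf (0.0781) did not, since 1 isoform then stands for the gene. Without a variance trend 5 isoforms of the 10 genes passed and 2638 of all isoforms, at 0.001 the numbers were 1 and 144, and DESeq2 gave 8068 in all. DESeq2 at 0.001, added after seeing the data, gave 8 and 3613. Anxa2-005 passed with a pseudocount of 5 (adjusted p = 0.0258), Anxa5-001 with DESeq2 (0.0146) and the usage of Anxa4-007 with diffSplice (0.0164). Leaving out 1 library gave 2920 to 5891 isoforms and, for usage, 512 to 1030. Without siL-DHX15-LEC library 4 more isoforms passed than with all libraries, 3532 higher and 2359 lower, against 3317 higher and 1925 lower. A smaller sample can lower a count, and the causes of these differences were not tested. Taking 200 bases off each length raised the levels per kilobase and gave a range between the highest and the lowest gene of 56.4-fold, against 52.3-fold, with Anxa4 in place of S100a4 as the lowest in WT-LEC. No paired analysis was possible because the labels give no replicate numbers shared between the conditions. Counting error is small at these depths except for isoforms with few counts, such as Anxa2-005.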
